A study of Mus musculus with 96 samples.

Results

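The nuclear genes of oxidative phosphorylation are the genes in the cell nucleus that encode subunits of the respiratory chain and of the ATP synthase. They were chosen by gene symbol alone, as the symbols beginning Nduf followed by a, b, c, s or v and a digit, the 4 Sdh genes, the symbols beginning Uqcr, Cyc1, the symbols beginning Cox4 to Cox8 followed by a, b or c, and the symbols beginning Atp5. Rows marked -ps, of which there were 8, and the Ndufaf assembly factors were left out. The rule found 85 of the 22709 genes in the table, of which 4 (Ndufb4c, Cox6c2, Ndufa11b and Ndufs6b) are annotated as processed pseudogenes, with 40 in complex I, 4 in complex II, 9 in complex III, 15 in complex IV and 17 in complex V. Expression was measured by sequencing messenger RNA from bulk mouse hippocampus and prefrontal cortex in 96 libraries, 48 per tissue. Each tissue held 8 groups, formed by maternal immune activation (MIA) or saline, by the CSF1R inhibitor PLX5622 (PLX) or its control, and by sex.

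The 8 groups of each tissue were MIA PLX females (6 libraries), MIA PLX males (6), MIA control females (7), MIA control males (5), saline PLX females (6), saline PLX males (6), saline control females (6) and saline control males (6). All libraries came from mice whose strain, age and genotype are not given in the sources used here, and neither are the agent of the immune activation, what the control animals of the inhibitor received, or the doses and times. PLX5622 blocks CSF1R, a receptor on which microglia depend for survival, and the design text states that it was given to target these cells and let them renew. The libraries are labelled as separate samples with no litter given, so p-values measure the spread between libraries, and an effect of MIA and a difference between litters cannot be told apart. The tissue is bulk, so fewer cells of a type and less RNA per cell cannot be told apart either.

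Oxidative phosphorylation takes place at the inner membrane of the mitochondrion. Complex I (NADH dehydrogenase) and complex II (succinate dehydrogenase) pass electrons to ubiquinone, complex III passes them on to cytochrome c, and complex IV (cytochrome c oxidase) passes them to oxygen. Complexes I, III and IV pump protons, and complex V, the ATP synthase, uses the returning protons to make ATP, on which neurons depend heavily for ion pumping and synaptic transmission. A few subunits of complexes I, III, IV and V are encoded in the mitochondrial genome and are not among these genes. Many nuclear subunit genes carry binding letters for the transcription factors NRF1, GABP (an ETS factor), YY1 and Sp1 near their start.

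The libraries held between 22234569 and 26689351 recovered reads in the hippocampus and between 22752437 and 25928320 in the prefrontal cortex. Marker genes fitted the labelled tissues. In the fit over 96 libraries 4 of 4 hippocampal markers were higher and 5 of 5 cortical markers lower in hippocampus than in prefrontal cortex. In each tissue 14 of 48 libraries stood apart on the first principal component (25.2% of the variance in the hippocampus, 27.7% in the prefrontal cortex), computed without the 85 genes and without cytosolic ribosomal protein genes. They bore the same 14 labels in both tissues. They comprised 2 of 24 PLX libraries and 12 of 24 control libraries. The comparison of PLX with control is therefore given with these 14 libraries, without them, and with a term for them.

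Summed over the 85 genes, the share of signal was lower on average in PLX than in control libraries of both tissues. In the plot of summed levels by library, the genes together took 0.638% at the lowest, 0.699% at the median and 0.904% at the highest of the signal in the 24 PLX libraries of the hippocampus, against 0.677%, 0.835% and 1.00% in the 24 control libraries. The means were 0.713% ± 0.0631 in PLX and 0.832% ± 0.109 in control hippocampus (SD, n = 24 each). In the prefrontal cortex the PLX libraries ran 0.626%, 0.689% and 0.961%, against 0.636%, 0.864% and 0.993% in the control libraries, with means of 0.706% ± 0.0724 and 0.825% ± 0.120 (SD, n = 24 each). The ranges of PLX and control overlapped in both tissues, and the control libraries were the more spread.

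**Figure D1:**
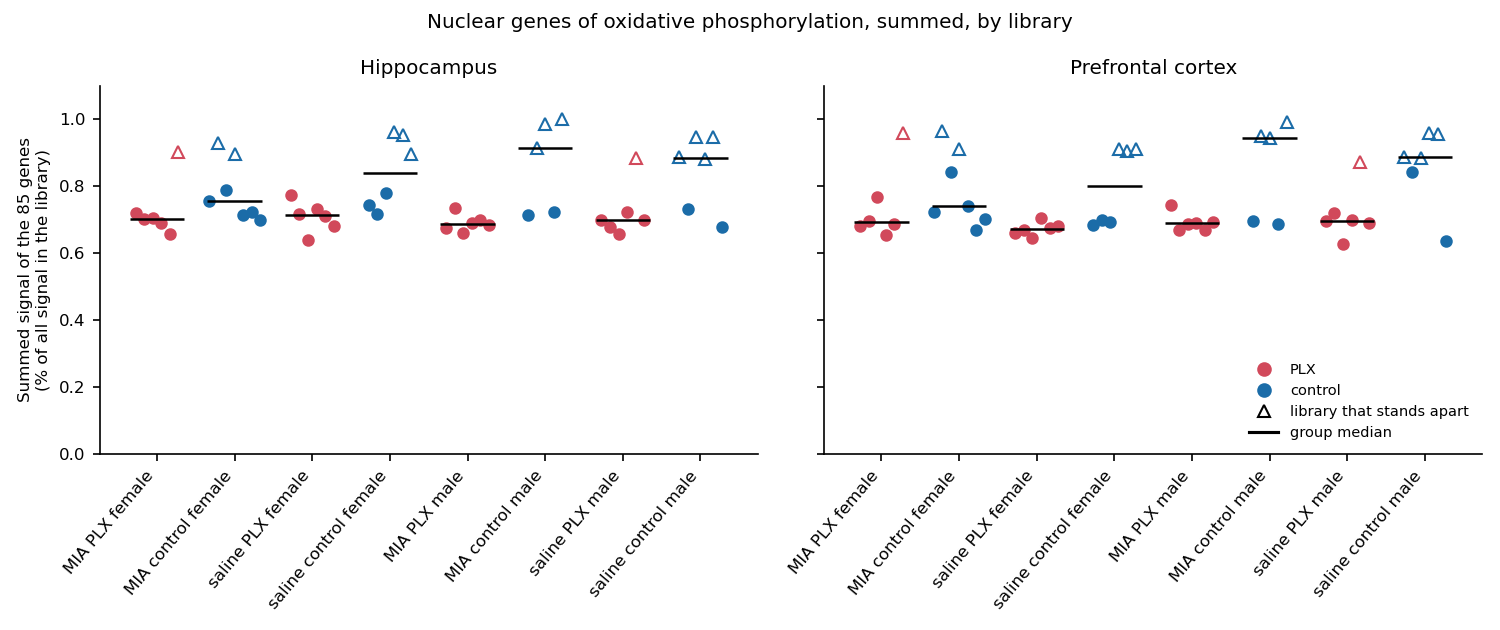
Summed signal of the 85 genes as a percentage of all signal in a library, by group, with PLX groups left of their control groups, in hippocampus and prefrontal cortex. Each point is a library and triangles mark the 14 libraries that stood apart. In the hippocampus these lie between 0.881% and 1.00% and the other 34 between 0.638% and 0.788%.

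The 14 libraries that stood apart held 0.881% to 1.00% of their signal in these genes in the hippocampus, against 0.638% to 0.788% in the other 34, so the sides did not overlap. Those of the prefrontal cortex held 0.872% to 0.993%, against 0.626% to 0.843% in the other 34. Among the libraries that did not stand apart, the hippocampal mean was 0.697% ± 0.0307 in 22 PLX libraries and 0.731% ± 0.0324 in 12 control libraries (SD). The prefrontal means were 0.687% ± 0.0308 in 22 PLX libraries and 0.718% ± 0.0638 in 12 control libraries (SD). The sides were drawn from the data and are not groups of the study, so they are compared by no test.

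The genes did not all follow the split equally. The median difference of the 83 tested genes between the 14 libraries and the other 34 was 0.41 on the log2(signal + 1) scale in the hippocampus and 0.45 in the prefrontal cortex, against a median of 0.01 over all tested genes. By complex, the hippocampal medians were 0.43 for complex I, 0.35 for II, 0.41 for III, 0.41 for IV and 0.35 for V. All 14 libraries lay above all 34 others for 24 of the 83 genes in the hippocampus and for 14 of 83 in the prefrontal cortex, against 453 of 19938 and 462 of 19841 over all tested genes. Atp5l, which encodes subunit g of the ATP synthase membrane sector, went the other way, with a difference of -0.18 in the hippocampus and -0.22 in the prefrontal cortex.

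Shorter transcripts had the larger differences. Genes with transcripts under 800 nucleotides, 49 of the 83, had a median difference of 0.46 in the hippocampus and 0.49 in the prefrontal cortex. The 19 genes of 800 to 1500 nucleotides had 0.37 and 0.42, and the 15 longer genes 0.31 and 0.29. Over all other tested genes the medians in the same length classes were 0.18, 0.19 and -0.04 in the hippocampus. Across the 83 genes Spearman's rho between length and difference was -0.55 in the hippocampus and -0.59 in the prefrontal cortex, against -0.43 and -0.47 across all other genes. The genes share their libraries, so these correlations are descriptions. Some lengths are not whole numbers, such as 2675.5 for Atp5g1, so a length can summarise several annotated transcripts of a gene. It may differ from the length of the expressed transcript, which would shift the length class and the level per kilobase. What sets these libraries apart was not tested.

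**Figure D2:**
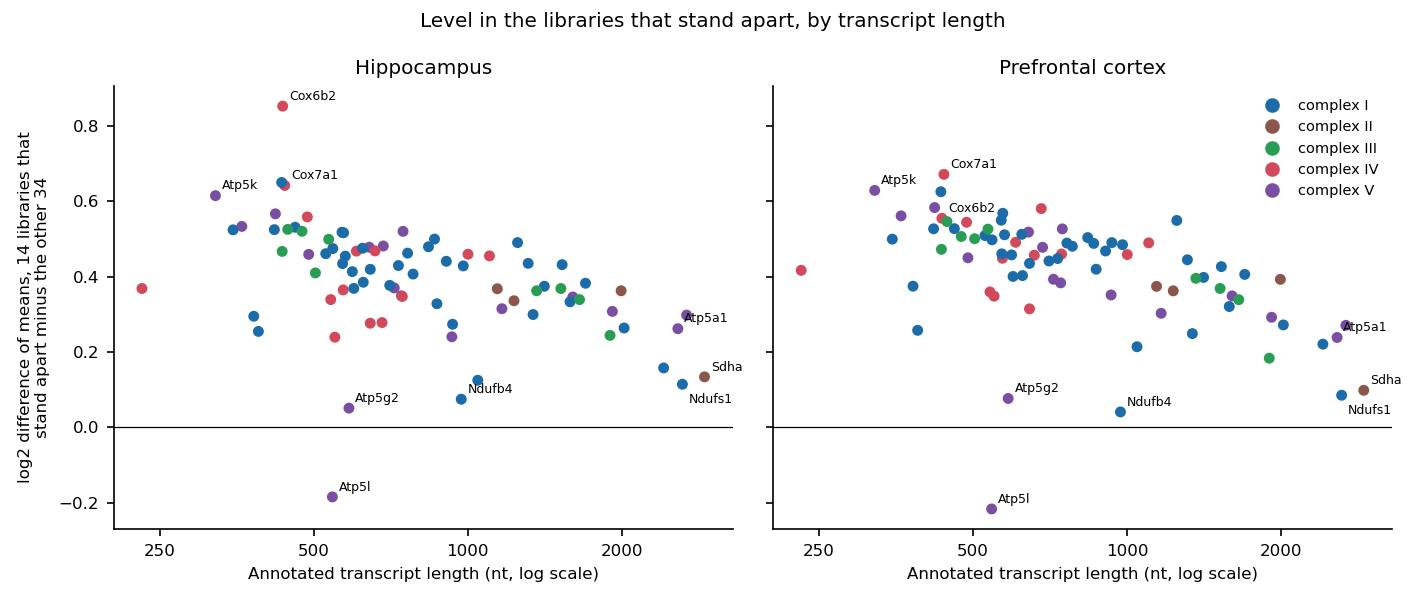
Difference of each tested gene between the 14 libraries that stood apart and the other 34, on the log2(signal + 1) scale, against transcript length in nucleotides on a log axis, coloured by complex, for hippocampus and prefrontal cortex. Short transcripts show the larger differences, and Atp5l lies below 0 in both tissues.

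**Figure D3:**
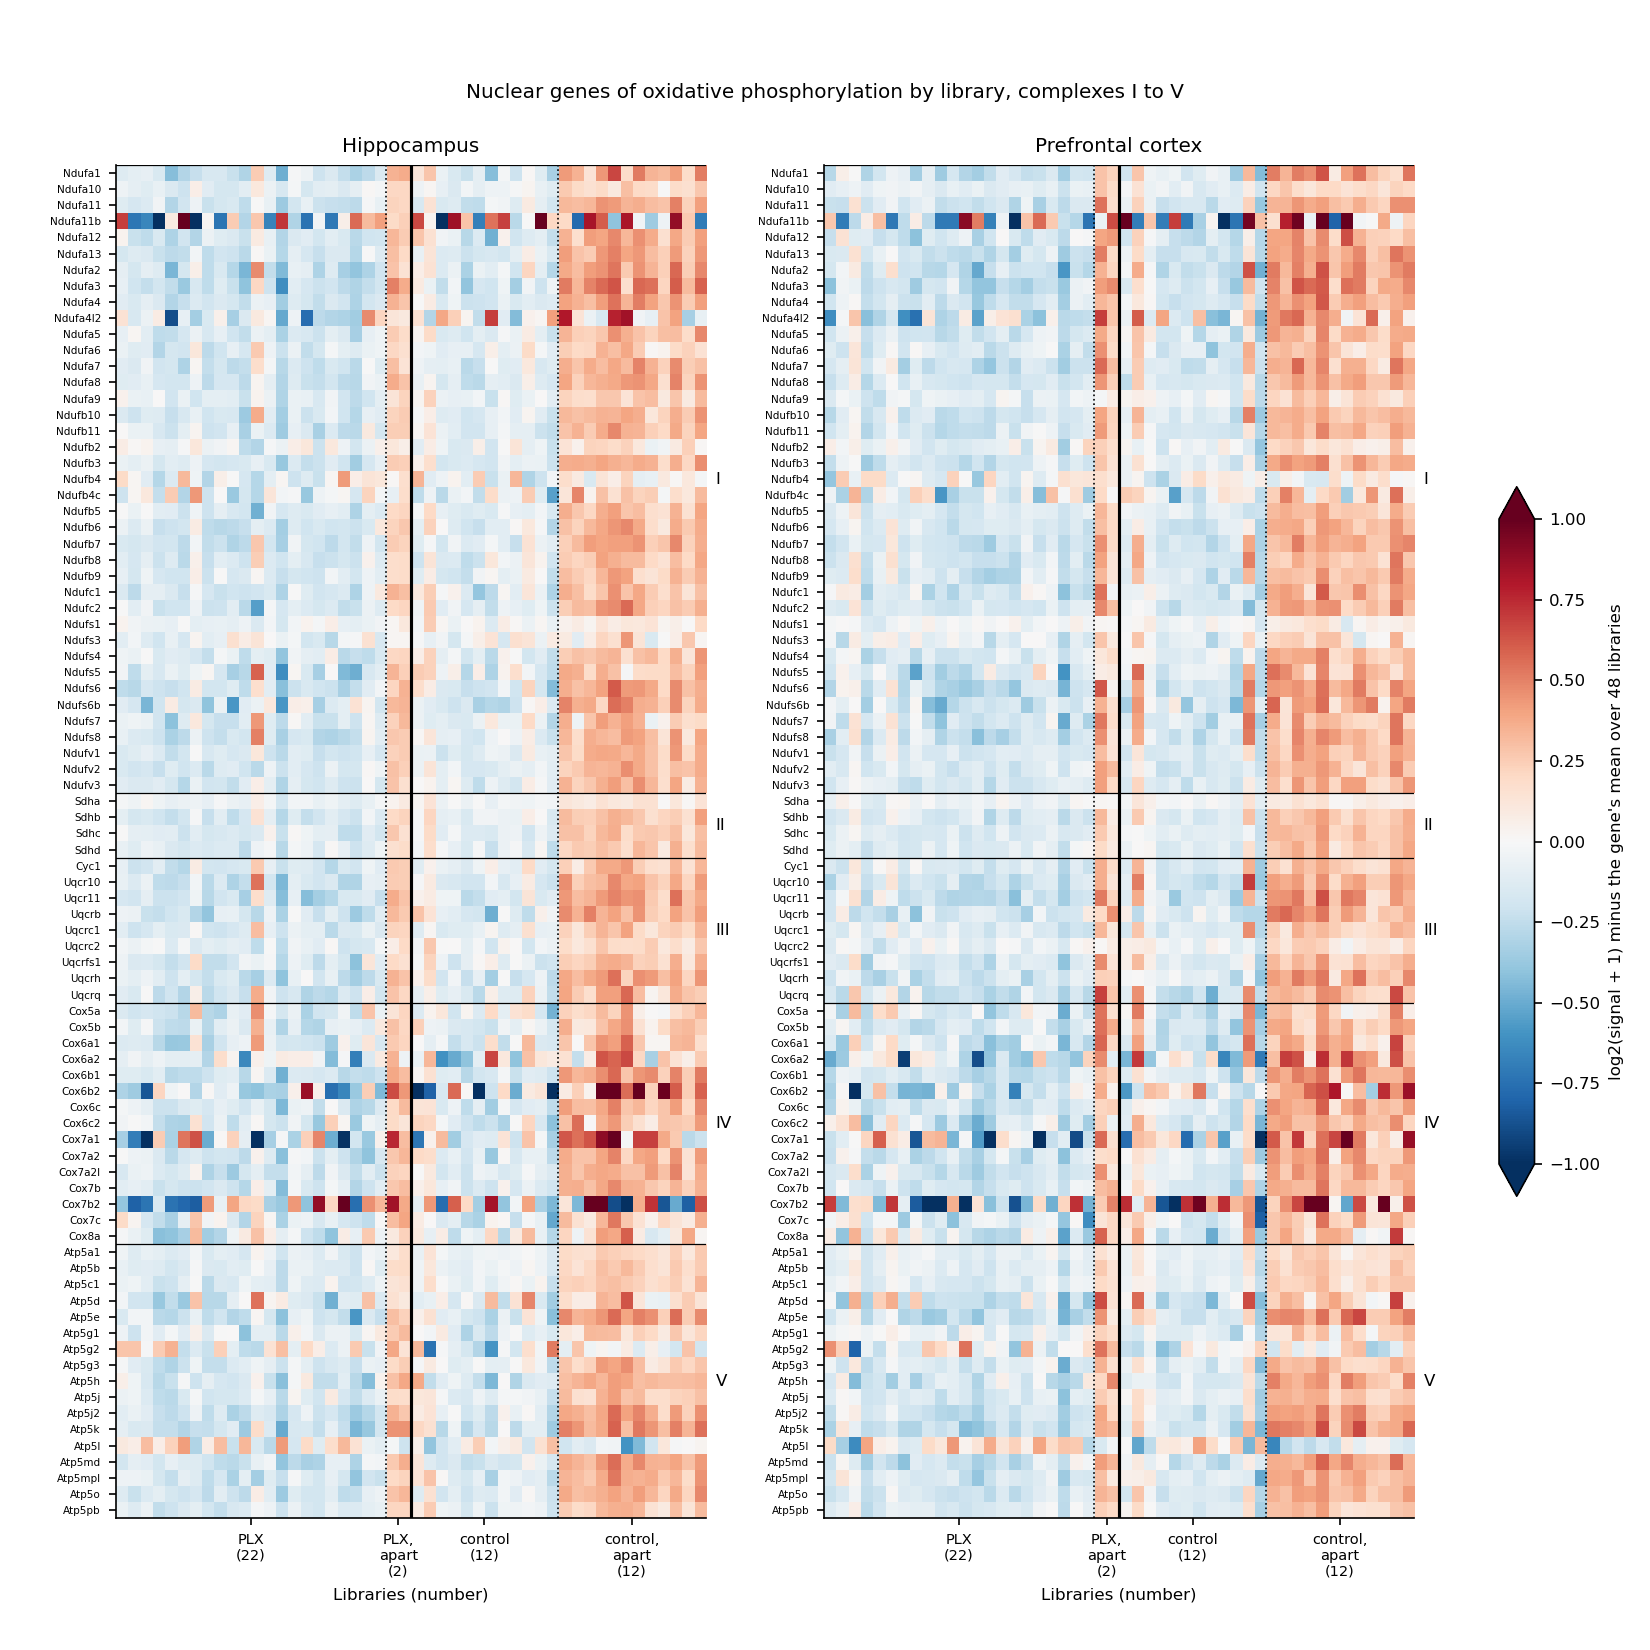
Level of 84 of the 85 genes in each library as log2(signal + 1) minus the gene's mean over the 48 libraries of the tissue, with genes grouped by complex and libraries ordered as 22 PLX, 2 PLX that stood apart, 12 control and 12 control that stood apart. Nearly every row is higher in the 14 libraries that stood apart, while Ndufb4, Atp5g2 and Atp5l show no such band.

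In the heat map by library most rows move together. The median correlation between pairs of the genes was 0.78 over the 48 hippocampal libraries and 0.80 over the 48 prefrontal libraries, and 0.44 and 0.57 over the 34 libraries of each tissue that did not stand apart. The steadiest gene of complex I was Ndufs1, the large iron-sulfur subunit of the NADH-oxidising arm, with an SD of 0.088 (log2) over the hippocampal libraries and 0.077 over the prefrontal ones. In complex II it was Sdha, the flavoprotein that oxidises succinate (SD 0.081 and 0.075), and in complex V it was Atp5a1, the alpha subunit of the catalytic head (SD 0.136 in each tissue). The most variable tested genes of their own complexes were Ndufa4l2 in complex I (0.364 and 0.369) and Uqcr11, a small subunit, in complex III (0.273 and 0.304). In complex V it was Atp5k, subunit e of the membrane sector (0.316 and 0.328). Ndufa4l2 is a low gene, with a mean signal of 33.5 in the hippocampus, so counting noise adds to its spread. Complex IV is not ranked here, and its low gene Cox6b2 also varied widely, at 43.4 ± 19.7 in the hippocampus (SD, n = 48 libraries).

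The promoters of several of these genes are shown because most of these genes moved together across libraries and they differ in the letters they carry. Ndufb4, whose measured level did not follow the split, is among those printed, and part of its sequence is shared with other genes (below). RefSeq promoter sequences on the GRCm38.p6 build, 300 bases around each start, were matched for 67 of the 85 genes. The NRF1 letters, GCGCA then any base then GCGC, were searched on both strands and were found in 17 of 67 (25.4%). The background was 9.25% of the 13936 genes of the table with a matched promoter. The ETS letters CCGGAAG were found in 17 of 67 (25.4%) against 16.2%, the YY1 letters AAGATGG were found in 11 of 67 (16.4%) against 7.71%, and the Sp1 letters GGGCGG were found in 28 of 67 (41.8%) against 61.5%. None of these letters was found in 16 of the 67. A match is a description and not a site. The 120 bases before the annotated start are printed 5′ to 3′ on the gene's strand, which is the minus strand for all 5, with NRF1 letters in capitals for Sdha (chr13:74350241-74350360), Ndufb4 (chr16:37654369-37654488) and Atp5k (chr5:108434400-108434519), and ETS letters in capitals for Cox6b1 (chr7:30626115-30626234). Ndufa4 (chr6:11907451-11907570) carries none of the searched letters in its window.
Sdha: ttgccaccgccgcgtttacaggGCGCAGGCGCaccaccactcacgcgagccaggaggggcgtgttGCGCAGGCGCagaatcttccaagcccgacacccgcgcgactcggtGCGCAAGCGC
Ndufb4: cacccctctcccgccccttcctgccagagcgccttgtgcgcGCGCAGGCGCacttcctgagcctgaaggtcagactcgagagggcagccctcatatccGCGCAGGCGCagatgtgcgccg
Atp5k: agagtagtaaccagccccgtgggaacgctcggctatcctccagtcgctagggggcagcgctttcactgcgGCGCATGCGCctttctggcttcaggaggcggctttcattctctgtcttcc
Cox6b1: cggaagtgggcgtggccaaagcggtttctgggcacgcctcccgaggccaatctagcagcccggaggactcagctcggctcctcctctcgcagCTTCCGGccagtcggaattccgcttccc
Ndufa4: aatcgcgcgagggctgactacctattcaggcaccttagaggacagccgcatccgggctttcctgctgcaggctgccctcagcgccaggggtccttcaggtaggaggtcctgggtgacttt

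Genes with NRF1 letters had a median difference of 0.37 between the 14 libraries that stood apart and the others in the hippocampus and 0.40 in the prefrontal cortex. The matched genes without them had 0.43 and 0.46. For the ETS letters the medians were 0.43 and 0.48 with them, against 0.41 and 0.44 without. For YY1 they were 0.37 and 0.41, against 0.43 and 0.46, and for Sp1 0.41 and 0.44, against 0.43 and 0.46. The gap was thus not particular to the NRF1 letters, and none of these differences was tested.

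Per kilobase of transcript, the most abundant of the 85 was Atp5b, the catalytic beta subunit of the ATP synthase, at 12248 ± 1373 signal per kb in the hippocampus and 12372 ± 1398 in the prefrontal cortex (SD, n = 48 libraries each). Cox8a, the ubiquitous form of a small complex IV subunit, followed at 9135 in the hippocampus and 9457 in the prefrontal cortex. Ndufa4, first described in complex I and later found with complex IV, stood at 7596 and 7492, and Atp5a1 at 7555 and 7653. The tissue-restricted isoforms were low in both tissues. Ndufa4l2, a paralogue of Ndufa4 induced by hypoxia, had 35.9 signal per kb in the hippocampus and 37.6 in the prefrontal cortex. Cox7a1, a heart and muscle isoform, had 52.7 and 48.1, Cox6a2, another heart and muscle isoform, 72.3 and 84.4, and Cox6b2, a testis isoform, 99.8 and 62.7. Cox7b2 (9.04 and 9.66) and Ndufa11b (10.6 and 10.5) were the lowest and did not pass the filter on low values in either tissue, which left 83 genes for the tests within a tissue.

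Some levels are uncertain because sequence is shared with other genes. All 50-base stretches of Ndufb4c (100%) occur in another annotated gene, as do 52.8% of those of Cox6c2, 41.1% of Atp5o, 38.4% of Atp5g2 and 31.6% of Ndufb6. Ndufb4c, Cox6c2, Ndufa11b and Ndufs6b are the processed pseudogenes of the GENCODE vM21 annotation. Atp5l shared 9.99% of its stretches, spread over 642 other genes. Ndufb4 shared 18.3%, with 3 other genes. Its mean signal in the hippocampus was 89.1, against 102 for the pseudogene Ndufb4c (joint scaling of both tissues). Between the 14 libraries that stood apart and the others, Ndufb4c differed by 0.25 in the hippocampus and 0.26 in the prefrontal cortex. Ndufb4 differed by 0.07 and 0.04. Whether shared sequence affects the level of Ndufb4 was not tested.

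PLX was set against control to see how the tissues differ after the inhibitor. Averaged over the 4 combinations of prenatal treatment and sex, 72 of 83 genes were lower and 0 were higher in PLX than in control hippocampus (limma, Benjamini-Hochberg adjusted p under 0.05). Over all tested genes 40.0% were called, and 19.2% were called lower. The fall covered 36 of 39 tested genes of complex I, 4 of 4 of complex II, 9 of 9 of complex III, 9 of 14 of complex IV and 14 of 17 of complex V. The median difference was -0.23 on the log2(signal + 1) scale, against -0.00 over all tested genes, and 81 of 83 genes had a negative value. In the prefrontal cortex also 72 of 83 were lower and 0 higher, against a background of 37.8% called and 18.1% called lower, with a median of -0.23. There the lower genes were 35 of 39 in complex I, 4 of 4 in II, 9 of 9 in III, 11 of 14 in IV and 13 of 17 in V.

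None of these calls held without the 14 libraries that stood apart, of which 12 were control. That fit kept 22 PLX and 12 control libraries per tissue. It lost 3 of 5 MIA control males and 4 of 6 saline control males, so it can also miss small differences. With those left out 0 of 83 genes were called in either tissue (limma), with 6 genes at an unadjusted p under 0.05 in the hippocampus (10.7% of all genes) and 4 in the prefrontal cortex (9.85%). The medians became -0.05 in both tissues, the smallest adjusted p was 0.304 in the hippocampus and 0.445 in the prefrontal cortex, and 72 and 71 of the 83 values were negative. Over all genes the share called fell to 0.0451% in the hippocampus and 0.161% in the prefrontal cortex. With all libraries kept and a term for the 14, 0 of 83 were called in either tissue, with 28 and 22 genes at an unadjusted p under 0.05 (14.8% and 12.3% of all genes), medians of -0.06 and -0.05, and backgrounds of 0.376% and 0.217%. The part of whatever sets these libraries apart in the difference between PLX and control was not tested.

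**Figure D4:**
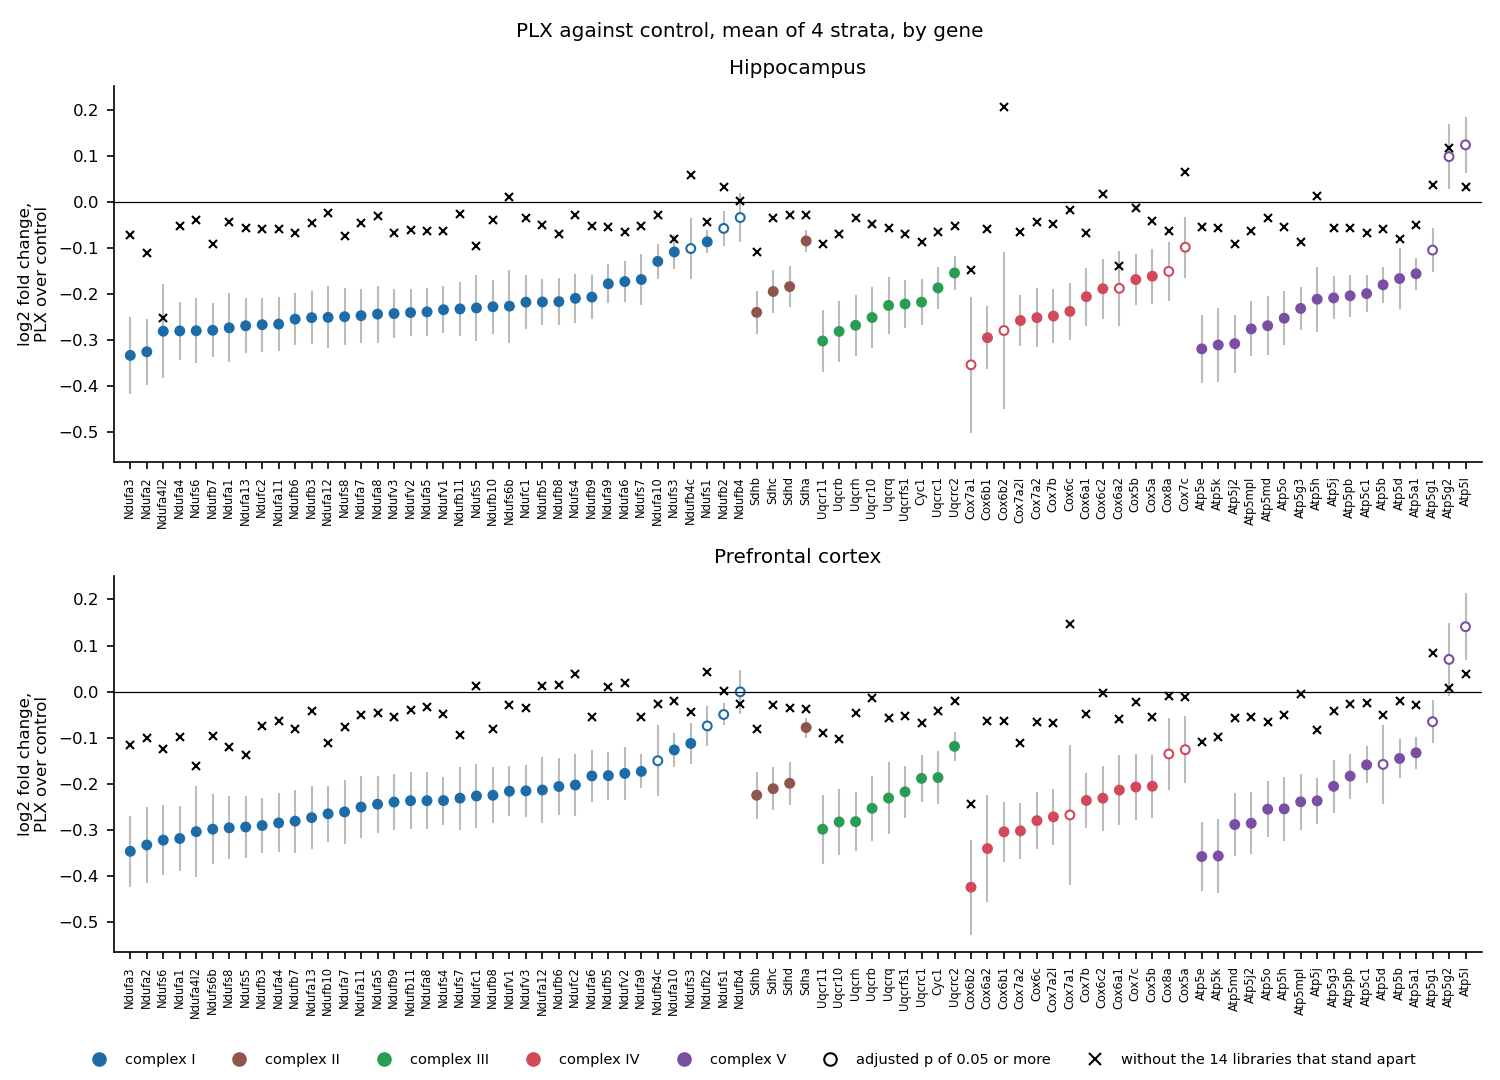
Difference between PLX and control for the tested genes except 1, averaged over 4 combinations of prenatal treatment and sex, on the log2(signal + 1) scale with standard errors, by complex, with all libraries and without the 14 that stood apart, for hippocampus and prefrontal cortex. With all libraries the median is -0.23 in both tissues, and without the 14 it is -0.05.

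Complex I had 0 of 39 genes called in either tissue without the 14 libraries that stood apart. The values by gene below keep all libraries unless stated. In complex I of the hippocampus the smallest p-values among the genes that fell belonged to Ndufb7 and Ndufv2. Ndufb7, an accessory subunit of the membrane arm, had 822 at the lowest, 912 at the median and 1248 at the highest in PLX libraries, against 880, 1180 and 1446 in control libraries. The PLX median was the lower and the groups overlapped, and the log2 difference was -0.28 ± 0.06 (SE, limma, adjusted p = 0.0009). Ndufv2, an iron-sulfur subunit next to the NADH site, differed by -0.24 ± 0.05 (SE, limma, adjusted p = 0.0010). Of the core subunits, Ndufv1, which binds NADH, fell by 0.23 on the log2 scale, while Ndufs1 fell by 0.09 (limma, adjusted p = 0.0059). Ndufs1 differed by -0.05 in the prefrontal cortex and did not pass (limma, adjusted p = 0.094). The leading complex I genes there were Ndufb3, a membrane-arm subunit, at -0.29 ± 0.06 (SE, limma, adjusted p = 0.00128), and Ndufa9, an accessory subunit near the quinone site, at -0.17 ± 0.04 (SE, limma, adjusted p = 0.0014). Ndufb3 ran 921, 1032 and 1426 in PLX libraries of the prefrontal cortex, against 940, 1313 and 1671 in control libraries, and the groups overlapped. Ndufb4, another membrane-arm subunit whose promoter is printed above, showed -0.03 in the hippocampus (limma, adjusted p = 0.62) and -0.00 in the prefrontal cortex (limma, adjusted p = 0.99). Ndufb2, also of the membrane arm, showed -0.06 and -0.07 and passed in neither tissue.

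Complex II had 0 of 4 genes called in either tissue without the 14 libraries that stood apart. With all libraries kept, all 4 subunits fell in both tissues. Sdhb, the iron-sulfur subunit, had 1915, 2096 and 2724 in PLX hippocampus, against 2102, 2602 and 3112 in control hippocampus, and gave -0.24 ± 0.05 (SE, limma, adjusted p = 0.000633). The highest PLX library lay above the control median, so the ranges overlapped. Sdhc, a membrane anchor, gave -0.20 ± 0.05 in the hippocampus (SE, limma, adjusted p = 0.0019). Its prefrontal levels were 1483, 1564 and 2064 in PLX libraries, against 1467, 1846 and 2322 in control libraries, and it differed by -0.21 (limma, adjusted p = 0.0017). Sdhd, the other anchor, gave -0.20 there (limma, adjusted p = 0.0019). Sdha, the catalytic flavoprotein, ran 8896, 9821 and 10768 in PLX hippocampus, against 9554, 10234 and 11270 in control hippocampus. Its fall was the smallest of the complex, at -0.09 in the hippocampus (limma, adjusted p = 0.0043) and -0.08 in the prefrontal cortex (limma, adjusted p = 0.0055).

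Complex III had 0 of 9 genes called in either tissue without the 14 libraries that stood apart. With all libraries kept, all 9 genes fell in both tissues. Uqcr11 had 462, 551 and 808 in PLX hippocampus, against 518, 692 and 914 in control hippocampus, and differed by -0.30 ± 0.07 (SE, limma, adjusted p = 0.0012). Cyc1, cytochrome c1, differed there by -0.22 ± 0.05 (SE, limma, adjusted p = 0.0014). Uqcrfs1, the Rieske iron-sulfur protein, fell by 0.22 and the core protein Uqcrc1 fell by 0.19 on the log2 scale in each tissue. Uqcr11 gave -0.30 in the prefrontal cortex as well (limma, adjusted p = 0.0030). Uqcrh, the hinge protein that binds cytochrome c1, had 2103, 2374 and 3106 in PLX prefrontal cortex, against 2008, 2722 and 3851 in control prefrontal cortex. The groups overlapped, and the difference was -0.28 ± 0.06 (SE, limma, adjusted p = 0.0018).

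Complex IV had 0 of 14 genes called in either tissue without the 14 libraries that stood apart. With all libraries kept, 9 of 14 genes fell in the hippocampus and 11 of 14 in the prefrontal cortex. Cox7a2l, a protein that joins complexes III and IV into supercomplexes, had 1282, 1499 and 1934 in PLX hippocampus, against 1424, 1795 and 2326 in control hippocampus, and differed by -0.26 ± 0.06 (SE, limma, adjusted p = 0.0010). Cox6b1, the ubiquitous form of a subunit facing the intermembrane space, ran 2379, 2982 and 4328 in PLX hippocampus, against 2726, 3784 and 4921 in control hippocampus, with a difference of -0.30 ± 0.07 (SE, limma, adjusted p = 0.0016). Its groups overlapped, and in the prefrontal cortex it gave -0.30 (limma, adjusted p = 0.0015). Cox7a2, the ubiquitous partner of Cox7a1, had 1669, 1966 and 2547 in PLX prefrontal cortex, against 1722, 2508 and 3266 in control prefrontal cortex, and differed by -0.30 ± 0.06 (SE, limma, adjusted p = 0.00114).

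Tissue-restricted isoforms were mostly negative as well. Cox6a1, the ubiquitous form, fell by 0.21 in each tissue, and Cox6a2 gave -0.19 in the hippocampus (limma, adjusted p = 0.059) and -0.34 in the prefrontal cortex (limma, adjusted p = 0.018). Cox6b2 gave -0.28 in the hippocampus (limma, adjusted p = 0.19) and -0.42 in the prefrontal cortex (limma, adjusted p = 0.0024). Cox7a1 gave -0.35 ± 0.15 in the hippocampus (SE, limma, adjusted p = 0.052) and -0.27 in the prefrontal cortex (limma, adjusted p = 0.159). Cox5a, a matrix-side subunit, fell by 0.16 in the hippocampus (limma, adjusted p = 0.029) and gave -0.13 in the prefrontal cortex (limma, adjusted p = 0.166). Cox5b, another matrix-side subunit, fell by 0.17 in the hippocampus and 0.21 in the prefrontal cortex, and Cox7b by 0.25 and 0.24. Cox8a passed in neither tissue, at -0.15 (limma, adjusted p = 0.056) and -0.14 (limma, adjusted p = 0.164). The difference between isoforms was not tested. Ndufa4 fell by 0.28 in the hippocampus and 0.29 in the prefrontal cortex, and Ndufa4l2 by 0.28 and 0.30.

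Complex V had 0 of 17 genes called in either tissue without the 14 libraries that stood apart. With all libraries kept, 14 of 17 genes fell in the hippocampus and 13 of 17 in the prefrontal cortex. Atp5b had 19418, 21485 and 26629 in PLX hippocampus, against 20872, 25378 and 29158 in control hippocampus. The ranges overlapped. It fell by 0.18 on the log2 scale in the hippocampus and 0.15 in the prefrontal cortex, and Atp5a1 by 0.16 and 0.13. Atp5c1, the rotating gamma subunit, differed in the hippocampus by -0.20 ± 0.04 (SE, limma, adjusted p = 0.0008). Atp5e, the epsilon subunit of the central stalk, ran 817, 964 and 1538 in PLX prefrontal cortex, against 883, 1336 and 1786 in control prefrontal cortex, and differed by -0.36 ± 0.07 (SE, limma, adjusted p = 0.0013). Its groups overlapped. Atp5j, coupling factor F6 of the peripheral stalk, differed there by -0.24 ± 0.05 (SE, limma, adjusted p = 0.0014).

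The 3 genes of the c-ring, which encode the same mature protein, gave different values. Atp5g3 had 3242, 3683 and 4737 in PLX hippocampus, against 3340, 4280 and 5512 in control hippocampus, and fell with a difference of -0.23 ± 0.05 (SE, limma, adjusted p = 0.000838). Atp5g1 gave -0.11 in the hippocampus (limma, adjusted p = 0.078) and -0.07 in the prefrontal cortex (limma, adjusted p = 0.267). Atp5g2 gave 0.10 in the hippocampus (limma, adjusted p = 0.27) and 0.07 in the prefrontal cortex (limma, adjusted p = 0.51), and 38.4% of its 50-base stretches are shared. Atp5l gave 0.12 (limma, adjusted p = 0.10) and 0.14 (limma, adjusted p = 0.12). Atp5g2 and Atp5l were the positive values among the 83 genes in both tissues, and neither passed the test.

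Within single combinations of prenatal treatment and sex, 0 of 83 genes were called in any of the 8 comparisons of PLX with control (limma). The backgrounds were 0.00502% in MIA females, 0.00502% in MIA males, 0.0301% in saline females and 0.0251% in saline males of the hippocampus. In the prefrontal cortex they were 0.0252% in MIA females, 0.0202% in MIA males, 0.0252% in saline females and 0.338% in saline males. At an unadjusted p under 0.05 the hippocampus had 2 genes in MIA females (7.71% of all genes), 67 in MIA males (28.2%), 49 in saline females (22.7%) and 40 in saline males (20.2%). The prefrontal counts were 3 in MIA females (7.59%), 61 in MIA males (24.9%), 38 in saline females (17.8%) and 51 in saline males (27.8%). The test by edgeR also called 0 in each, as did limma without the 14 libraries that stood apart and with a term for them. The medians were -0.11 in MIA females, -0.32 in MIA males, -0.25 in saline females and -0.22 in saline males of the hippocampus, and -0.09, -0.30, -0.24 and -0.27 in the same groups of the prefrontal cortex. The libraries that stood apart numbered 1 of 6 in MIA PLX females, 0 of 6 in MIA PLX males, 0 of 6 in saline PLX females and 1 of 6 in saline PLX males, against 2 of 7 in MIA control females, 3 of 5 in MIA control males, 3 of 6 in saline control females and 4 of 6 in saline control males. Without them the medians were -0.08 in MIA females, -0.03 in MIA males, -0.08 in saline females and -0.02 in saline males of the hippocampus, and -0.06, 0.00, -0.03 and -0.08 in the same groups of the prefrontal cortex. The order of the groups thus changed with these libraries. Values with the smallest p, none past the test, were Ndufb7 at -0.43 and Atp5g3 at -0.35 in hippocampal MIA males (limma, adjusted p = 0.0994 for both). Prefrontal saline males were led by Uqcrc1 at -0.35 (limma, adjusted p = 0.0690) and Sdhb at -0.31 (limma, adjusted p = 0.0804).

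Other combinations gave larger adjusted p-values. In hippocampal MIA females the smallest p belonged to Atp5g2 at 0.33 (limma, adjusted p = 0.543) and Atp5l at 0.25 (limma, adjusted p = 0.633). In saline females of the hippocampus Ndufb6 at -0.35 ± 0.11 and Ndufv2 at -0.31 led (SE, limma, adjusted p = 0.161 for both), and in saline males Ndufa2 at -0.39 and Ndufb7 at -0.32 (limma, adjusted p = 0.192 for both). Those of the prefrontal cortex were Uqcrc2 at -0.15 (limma, adjusted p = 0.564) and Ndufa9 at -0.17 (limma, adjusted p = 0.582) in MIA females, Cox6b2 at -0.79 and Ndufs4 at -0.37 in MIA males (limma, adjusted p = 0.141 for both), and Atp5e at -0.42 and Atp5mpl at -0.34 in saline females (limma, adjusted p = 0.273 for both).

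Single libraries decide 3 of these 8 counts. In MIA males the count became 56 lower in the hippocampus without control replicate 2 and 57 without control replicate 5, and in the prefrontal cortex 31 and 46 without the same replicates, which are the control libraries of that group that did not stand apart. In saline males of the prefrontal cortex it became 53 without control replicate 6, whose summed share of 0.636% was the lowest of its group, and 27 without PLX replicate 5, which stood apart.

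The effect of PLX in females minus that in males was called for 0 of 83 genes in either tissue by limma and by edgeR, against backgrounds of 0.0%. At an unadjusted p under 0.05 there was 1 gene in the hippocampus (4.94% of all genes) and 0 in the prefrontal cortex (4.54%). Its median was 0.07 in the hippocampus, with 74 of 83 values positive, and 0.11 in the prefrontal cortex, with 79 of 83 positive. Without the 14 libraries that stood apart the hippocampal median was -0.06 with 67 of 83 values negative, and with a term for them -0.02 with 56 negative. The prefrontal median was -0.01 with 48 negative without the 14, and 0.01 with 35 negative with the term. Cox6a2 had the smallest p in the hippocampus at 0.51 ± 0.16 (SE, limma, adjusted p = 0.857), and Uqcrc1 in the prefrontal cortex at 0.18 (limma, adjusted p = 0.823).

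MIA was set against saline to see what differs after maternal immune activation. Averaged over sex and inhibitor, 0 of 83 genes were called in either tissue by limma and by edgeR, with backgrounds of 0.0%. Unadjusted p-values under 0.05 numbered 0 in the hippocampus (4.76% of all genes) and 0 in the prefrontal cortex (5.96%). The median difference was -0.02 in the hippocampus and 0.02 in the prefrontal cortex. With a term for the 14 libraries that stood apart, 17 prefrontal genes had an unadjusted p under 0.05 (12.7% of all genes) and 0 were called, with a median of 0.05 and 4 of 83 values negative. Without the 14 it was 1 gene (3.95%), with a median of 0.03. The summed share was 0.765% ± 0.108 in MIA hippocampus and 0.780% ± 0.107 in saline hippocampus, and 0.768% and 0.763% in MIA and saline prefrontal cortex (SD, n = 24 each). The smallest p-values belonged to Ndufs6b, an annotated pseudogene, at -0.11 and Cox7a1 at 0.16 in the hippocampus (limma, adjusted p = 1 for both), and to Atp5l at -0.13 (limma, adjusted p = 0.862) and Ndufs3, a core subunit of the peripheral arm, at 0.07 (limma, adjusted p = 0.873) in the prefrontal cortex.

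By combination, the hippocampal medians of MIA against saline were 0.06 in PLX females, -0.07 in PLX males, -0.09 in control females and 0.02 in control males, and the prefrontal ones 0.13, -0.04, 0.00 and 0.00. Without the 14 libraries that stood apart they were -0.00, -0.01, -0.00 and 0.01 in the hippocampus and 0.07, 0.01, 0.13 and -0.08 in the prefrontal cortex, in the same order. With a term for the 14 they were -0.00, -0.01, 0.00 and 0.04 in the hippocampus and 0.07, 0.02, 0.09 and 0.03 in the prefrontal cortex. The leading values were Ndufb5 at 0.16 and Atp5g2 at 0.20 in hippocampal PLX females, Ndufs6b at -0.26 and Ndufb4 at -0.17 in PLX males, Ndufs3 at -0.14 and Cox6a2 at -0.28 in control females, and Cox7a1 at 0.51 and Atp5g2 at -0.24 in control males. Prefrontal values were led by the annotated pseudogene Cox6c2 at 0.29 and Uqcr11 at 0.31 in PLX females, Atp5md at -0.21 and Ndufs5 at -0.20 in PLX males, Ndufb4 at -0.21 and Atp5g2 at -0.29 in control females, and Uqcrb at 0.18 and Uqcrc2 at 0.08 in control males. By limma and by edgeR 0 of 83 genes passed in each of the 8 comparisons, against backgrounds of 0.00502% in hippocampal control females and 0.0% in the others. At an unadjusted p under 0.05 the hippocampus had 0 genes in each combination, with 2.74% of all genes in PLX females, 2.47% in PLX males, 6.41% in control females and 2.38% in control males. The prefrontal cortex had 4 in PLX females (5.35%), 0 in PLX males (2.89%), 1 in control females (5.0%) and 0 in control males (2.56%).

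Tests of whether the effect of MIA differed with PLX or with sex each called 0 of 83 genes in both tissues by limma and by edgeR. Their backgrounds were 0.00502% for the difference between the sexes in the hippocampus and 0.0% otherwise. At an unadjusted p under 0.05 the interaction with PLX gave 0 genes in the hippocampus (2.04% of all genes) and 0 in the prefrontal cortex (4.98%), and the difference between the sexes gave 1 (4.08%) and 0 (2.39%). The interaction of MIA with PLX had a median of 0.02 in the hippocampus, led by Atp5g2 at 0.20 and Cox8a at -0.16, and of 0.05 in the prefrontal cortex, led by Ndufa4l2 at -0.32 and Ndufb4 at 0.15. Without the 14 libraries these medians were -0.01 and 0.02, and with the term -0.03 and -0.00. The effect of MIA in females minus that in males was led by Cox7a1 at -0.60 and Atp5d, the delta subunit, at -0.25 in the hippocampus. It was led in the prefrontal cortex by Ndufs6b at 0.29 and Cox5b at 0.23. The medians were 0.03 and 0.10, and without the 14 libraries 0.00 and 0.13, when 17 prefrontal genes had an unadjusted p under 0.05 (8.19% of all genes) and 0 were called. Females against males gave 0 calls of 83 in the hippocampus, against a background of 0.246%, and 0 in the prefrontal cortex, against 0.141% (limma, with 0 in each by edgeR). Unadjusted p-values under 0.05 numbered 0 (7.85% of all genes) and 1 (6.05%). The leading values were Atp5l at -0.12 (limma, adjusted p = 0.658) and Atp5g2 at 0.12 (limma, adjusted p = 0.728) in the hippocampus, and Atp5a1 at -0.07 (limma, adjusted p = 0.795) and Sdhd at -0.08 (limma, adjusted p = 0.854) in the prefrontal cortex. The median for females against males was -0.02 in the hippocampus and -0.05 in the prefrontal cortex, with 62 and 75 of 83 values negative. Without the 14 libraries the hippocampal median turned to 0.05 with 7 negative, and with the term to 0.03 with 14 negative. The prefrontal median was -0.00 either way, with 46 negative without the 14 and 44 with the term.

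Hippocampus was set against prefrontal cortex over all 96 libraries after joint scaling. Of 84 tested genes 18 were higher and 3 lower in hippocampus (limma, adjusted p under 0.05), against 65.8% of all genes called, so the share of subunit genes called lay below the background. The median difference was 0.02, as over all genes. Without the 14 libraries that stood apart the count was 21 higher and 2 lower (background 63.0%), with a term for them 26 and 8 (71.4%), and with the label number as a block 24 and 4 (72.7%). The fit without the block treats the 96 libraries as independent. Cell type markers differed between the tissues as well, with 4 of 4 oligodendrocyte markers higher (median 0.37), 3 of 4 astrocyte markers higher and 1 lower, and 3 of 4 choroid plexus markers higher and 1 lower (median 3.67). Of 4 neuronal markers 3 were lower (median -0.25), of 5 markers of pericytes and smooth muscle 3 were higher, of 3 endothelial markers 1 was lower, of 4 markers of skeletal muscle and blood 2 were lower, and of 5 microglial and 2 parvalbumin interneuron markers 0 were called. Their part in the differences of the subunit genes was not tested. Higher genes were 10 in complex I, 1 in II, 1 in III, 2 in IV and 4 in V.

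The largest difference was that of Cox6b2. It had 14.2 at the lowest, 40.2 at the median and 103.6 at the highest in hippocampus, against 11.4, 26.3 and 48.03 in prefrontal cortex. The ranges overlapped, with the highest libraries all hippocampal, and the difference was 0.58 ± 0.10 (SE, limma, adjusted p = 3.73e-07). Without the 14 libraries that stood apart it was 0.39. Ndufa5, an accessory subunit of the peripheral arm of complex I, had 917, 1087 and 1590 in hippocampus, against 773, 959 and 1389 in prefrontal cortex, and was 0.21 ± 0.04 higher (SE, limma, adjusted p = 7.04e-06). The other higher genes of complex I were Ndufb2 (0.14 ± 0.03), Ndufa10 (0.13 ± 0.03), Ndufv3 (0.14), Ndufa12 (0.15), Ndufb4 (0.11), Ndufb3 (0.11), Ndufa13 (0.12), Ndufa3 (0.14) and Ndufs5 (0.11), on the log2 scale with SE where given.

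Atp5g1, one of the c-ring genes, had 551, 723 and 913 in hippocampus, against 523, 646 and 826 in prefrontal cortex, and was 0.16 ± 0.03 higher (SE). The other higher genes of complex V were Atp5h, subunit d of the peripheral stalk, at 0.15, Atp5l at 0.13 and Atp5md, a small membrane subunit, at 0.11. Sdhd, a membrane anchor of complex II, was 0.08 higher, Uqcr10, a small subunit of complex III, 0.13 higher (limma, adjusted p = 0.0177) and Cox6c 0.13 higher (limma, adjusted p = 0.0086).

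The 3 lower genes were Cox5a, Sdhb and Cox6a2. Cox5a had 1124, 1527 and 2161 in hippocampus, against 1250, 1730 and 2570 in prefrontal cortex, and differed by -0.18 ± 0.05 (SE, limma, adjusted p = 0.0007). Sdhb had 1922, 2236 and 3094 in hippocampus, against 2037, 2387 and 3308 in prefrontal cortex, and differed by -0.11 ± 0.03 (SE, limma, adjusted p = 0.0057). Cox6a2, which in the mouse brain is known from parvalbumin interneurons, had 29.6, 48.4 and 76.8 in hippocampus, against 28.2, 57.2 and 91.7 in prefrontal cortex, and differed by -0.18 ± 0.07 (SE, limma, adjusted p = 0.0182). The tissues overlapped widely for all 3.

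**Figure D5:**
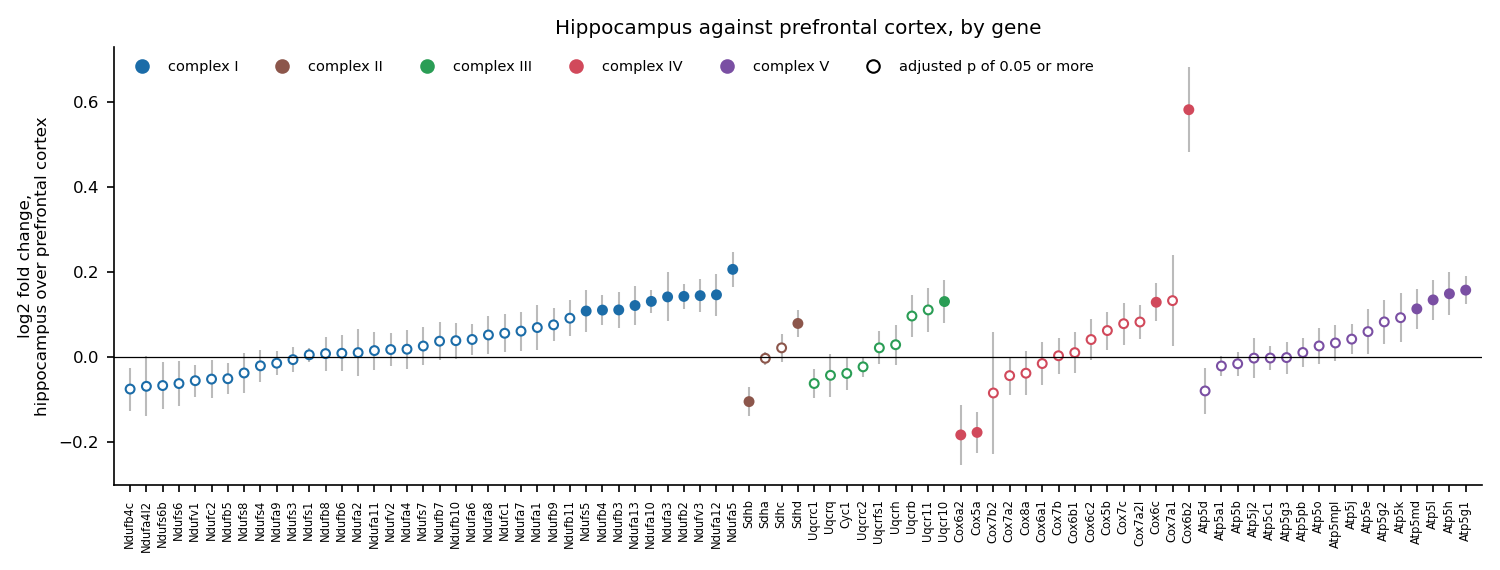
Difference between hippocampus and prefrontal cortex for 83 of the 84 tested genes on the log2 scale with standard errors, by complex, over 96 jointly scaled libraries. Of these, 18 genes lie above 0 and 3 below with adjusted p under 0.05, and Cox6b2 is farthest from 0 at 0.58.

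Several core subunits were not called between tissues, with 95% intervals of -0.03 to 0.03 for Sdha, -0.03 to 0.04 for Ndufs1, -0.07 to 0.04 for Atp5b and -0.07 to 0.03 for Atp5a1 on the log2 scale. The ubiquitous isoforms Cox6a1 (-0.02), Cox6b1 (0.01), Cox7a2 (-0.04), Cox7b (0.00) and Cox8a (-0.04) also did not pass the test, nor did Ndufa4 (0.02), Ndufa4l2 (-0.07), Cox7a1 (0.13) or Cox7b2 (-0.09).

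Calls in neighbouring gene groups were mostly lower in the comparison of PLX with control. Over all tested genes 19.2% were called lower in the hippocampus and 18.1% in the prefrontal cortex. Of 43 tested assembly factors of the respiratory complexes, 20 were lower and 0 higher in the hippocampus, and 18 lower and 1 higher in the prefrontal cortex. Of 81 cytosolic ribosomal protein genes, 54 were lower in the hippocampus and 60 in the prefrontal cortex, and of 77 mitochondrial ribosomal protein genes, 55 and 40. Of 16 tricarboxylic acid cycle genes 12 and 9 were lower, and of 16 glycolysis genes 11 and 11 were lower and 1 and 1 higher. With the 14 libraries that stood apart left out, and with a term for them, 0 genes of these groups were called in either tissue (limma). Between the 14 and the other 34 hippocampal libraries, the cytosolic ribosomal protein genes had a median difference of 0.38, the mitochondrial ones 0.27, glycolysis 0.26, the tricarboxylic acid cycle 0.19 and assembly factors 0.19.

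Of 14 regulators of the subunit genes, 3 were higher and 1 lower in PLX hippocampus, against 40.0% of all genes called. In the hippocampus Gabpa (0.17, limma, adjusted p = 0.0018) and Gabpb2 (0.32, limma, adjusted p = 0.0018), which encode 2 of the subunits of the ETS factor GABP, and Ppargc1b (0.49, limma, adjusted p = 0.0072), a coactivator of mitochondrial genes, were higher in PLX than in control. Tfam, which packages and transcribes mitochondrial DNA, was lower (-0.11, limma, adjusted p = 0.0077). Gabpb1, a further GABP subunit, gave 0.02 in the hippocampus (limma, adjusted p = 0.754) and 0.06 in the prefrontal cortex (limma, adjusted p = 0.213) and passed in neither. Prefrontal regulators were higher for 5 of 14 and lower for 2, against 37.8% of all genes called, with Ppargc1b at 0.58 (limma, adjusted p = 0.0032). With those 14 libraries left out, and with a term for them, 0 regulators were called in either tissue. Outside the symbol rule, Cox4i1, a core-binding subunit of complex IV, was lower by 0.26 in the hippocampus and 0.31 in the prefrontal cortex, and Cycs, cytochrome c, by 0.18 in the hippocampus.

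Markers of some other cell types differed in the same comparison. Summed over 5 microglial markers, the jointly scaled signal ran 6064, 6595 and 7394 in PLX hippocampus, against 6308, 7179 and 9675 in control hippocampus, and 5717, 6419 and 7105 in PLX prefrontal cortex, against 6483, 7408 and 9023 in control prefrontal cortex. All 5 were lower in PLX in both tissues, and with the term for the 14 libraries Cx3cr1 and P2ry12 remained lower in the hippocampus and Cx3cr1, P2ry12 and Csf1r in the prefrontal cortex. The 4 neuronal markers summed to between 128210 and 144070 in the 14 libraries that stood apart, against 143440 to 166720 in the other 34 of the hippocampus. The prefrontal sums were 140190 to 166710 in the 14, against 167170 to 193690 in the other 34. Single neuronal markers went both ways between these sides. Their log2 differences ran from -0.60 to 0.17 in the hippocampus (median -0.05) and from -0.66 to 0.13 in the prefrontal cortex (median -0.09). Medians of the other cell types ran from -0.07 (astrocytes) to 1.08 (choroid plexus) in the hippocampus. In the prefrontal cortex they ran from -0.14 (choroid plexus) to 0.81 (skeletal muscle and blood). The counts for the remaining cell types keep all libraries. Over all tested genes 40.0% were called in the hippocampus and 37.8% in the prefrontal cortex. Without the 14 libraries these shares were 0.0451% and 0.161%. Of 3 endothelial markers, 2 were lower in PLX in both tissues. Of 4 neuronal markers 2 were higher and 1 lower in each tissue, and of 2 markers of parvalbumin interneurons 1 was higher and 1 lower. Of 4 oligodendrocyte markers 0 were called in either tissue, and of 4 astrocyte markers 0 in the hippocampus and 1, Aqp4, higher in the prefrontal cortex. Of 5 markers of pericytes and smooth muscle 0 were called in the hippocampus and 2 were lower in the prefrontal cortex. Choroid plexus markers gave 0 calls of 4 in the hippocampus and 1 lower of 3 in the prefrontal cortex, and those of skeletal muscle and blood 2 lower of 4 and 1 lower of 4. None of the markers was at 0 in all libraries. The part of cell composition in the differences was not tested.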

How the data were processed

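Messenger RNA of mouse hippocampus and prefrontal cortex was sequenced in 96 libraries from total RNA. Per the labels, RNA was extracted with the miRNeasy Micro kit and libraries were made with a stranded mRNA ligation kit. Per the submitters' processing notes, Trimmomatic, STAR 2.6.1d and the GRCm39 (mm39) build were used. The deposited values are a signal, whole read counts that the authors divided by a size factor per library, scaled separately in each tissue. Whole reads were recovered in all 96 columns at a tolerance of 0.01. No source used here says whether strand was used in counting.

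Tests used limma 3.58.1 with trend (R 4.3.3) on log2(signal + 1), 8 groups per tissue in 1 model, over genes reaching a signal of 10 in 5 or more libraries. Adding 1 understates the change of low genes. P-values are two-sided and adjusted by Benjamini-Hochberg over all tested genes, and genes under 0.05 were called. Tissues were compared over 96 libraries rescaled jointly. The alternatives were a pseudocount of 5, no filter, TMM scaling, edgeR 4.0.16 on recovered reads, a block for the label number, each library left out, and the 14 libraries that stood apart left out or given a term. These 14 lie beyond the widest gap on the first principal component. That gap was 16.78 in the hippocampus, where the next widest was 13.41, and 21.78 in the prefrontal cortex, against 7.59. The cut is thus less distinct in the hippocampus. Procedures were tested on simulated data with independent libraries and no split like that of the 14. The simulation therefore cannot judge results that depend on these libraries. False calls by limma were 11.01% for PLX over 4 strata in the prefrontal cortex and 5.0% to 6.16% in the other simulated comparisons. The members, lists and tests were chosen with earlier results of these data known. Named genes are, per comparison, all called genes where there are at most 12, otherwise the 2 with the smallest p per complex and direction, the 2 with the smallest p where none is called, and a fixed list of core subunits and isoforms. The other called genes of the comparison between tissues were named after their values were seen. Atp5if1, Cox8b and Cox8c are not analysed here, and 1 further gene of the fixed list is counted among the members but not reported here. Lengths and shared sequence come from GENCODE vM21 and promoters from RefSeq, both on GRCm38, so no coordinates of the deposited build are given.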

Additional observations from a re-analysis of the deposited data

Results flagged for a closer look

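Within 5 of the 16 groups, 1 library lay far from the others in the summed share of signal of the 85 genes. Chance flags about 1 in 20 groups where groups are independent. The groups of both tissues bear the same labels, and MIA PLX females were flagged in both. The count therefore cannot be set against that rate. In the hippocampus the highest library of MIA PLX females had 0.9036% and that of saline PLX males 0.8847%. In the prefrontal cortex the highest library of MIA PLX females had 0.9607% and that of MIA PLX males 0.7448%, and the lowest library of saline control males had 0.636%. The libraries at 0.9036%, 0.8847% and 0.9607% are among the 14 that stood apart, and those at 0.7448% and 0.636% are not.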

How the results depend on the processing

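With the 14 libraries that stood apart left out, or with a term for them, the count of genes lower in PLX, 72 in each tissue, became 0 in the hippocampus and 0 in the prefrontal cortex. With the term, the count between tissues became 34 (26 higher, 8 lower), against 21. Leaving out each library gave 70 to 76 for PLX in the hippocampus, 70 to 74 in the prefrontal cortex and 18 to 25 between tissues. It gave 0 to 57 in hippocampal MIA males, 0 to 46 in prefrontal MIA males, 0 to 53 in prefrontal saline males, and 0 in every other comparison. Signs that turned without the 14 (first value) or with the term (second, where given) were, for PLX in the hippocampus, Cox6b2 (0.206, 0.1232), Atp5g1 (0.0355, 0.0265), Ndufb2 (0.0313, 0.0109) and Ndufb4 (0.0012). In the prefrontal cortex they were Cox7a1 (0.1469, 0.061), Atp5g1 (0.0846, 0.0614), Ndufv2 (0.0195, 0.0152), Ndufb2 (0.0417, 0.0282) and Ndufs1 (0.0015), and with the term alone Cox5a (0.0164), Cox8a (0.0264) and Ndufb4 (0.0052). Ndufb4 there was also 0.0041 by edgeR and 0.0023 with the replicate block. Between tissues without the 14, Ndufa4l2 became 0.0267, Cox6a1 0.0033, Cox7b -0.0027 and Atp5g3 0.0085. Leaving out single libraries turned the sign of Atp5g3 (-0.0164 to 0.0071), Cox6b1 (-0.0033 to 0.0216), Cox7b (-0.0103 to 0.0135), Ndufs1 (-0.0006 to 0.0093) and Sdha (-0.008 to 0.000) between tissues and of Ndufb4 for PLX in the prefrontal cortex (-0.015 to 0.0215). The cause was not tested.

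Same-numbered libraries of the 2 tissues correlated at -0.097 to 0.687 (median 0.242), with 42 of 48 pairs over 0.1 and 38 of 48 hippocampal libraries closest to their own number, against a median of -0.004 for the same number in different hippocampal groups. The labels do not say that a number marks an animal, and not every pair was over 0.1, so the fit without the block is given first and the fit with it as an alternative. With the replicate block the PLX counts were 71 and 73, and the tissue count was 28 (24 higher, 4 lower). Depth limits Cox7b2 and Ndufa11b most, and intervals cover spread between libraries only.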
